A study of Homo sapiens with 6 samples.

Results

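The retinoic acid receptors and genes around them were followed in BE-(2)-C cells after knockdown of ELF4. They were chosen by exact gene name: the receptors RARA, RARB and RARG, the binding proteins CRABP1 and CRABP2, the retinoid reductase DHRS3, the corepressor NRIP1, and the homeodomain genes MEIS1 and MEIS2. Of these 9 genes, 8 were found among the 26906 rows of the table, and DHRS3 was not analysed here. BE-(2)-C is an established human neuroblastoma line, and all cells were grown in medium with fetal bovine serum. One group received a control siRNA and the other an siRNA against ELF4, a transcription factor of the ETS family. PolyA-selected RNA was sequenced 48 hours later from 3 libraries per group. The labels name no added retinoid in either group, all data come from 1 cell line, and the sequences of the siRNAs were not used here.

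Retinoic acid is made from vitamin A inside cells and binds receptors of the RAR family, which sit on DNA as partners of the retinoid X receptors (RXRs). Without ligand the pair holds corepressors, and with ligand it recruits coactivators. The binding proteins carry retinoic acid in the cytoplasm, and several target genes, RARB among them, feed back on the pathway. Retinoic acid drives neuroblastoma cells in culture toward a neuronal form and is used in treatment of the disease.

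After ELF4 siRNA, RARG, CRABP1, CRABP2 and NRIP1 fell, MEIS2 rose by a small amount, and RARA and MEIS1 did not pass the test. RARB was too low to be tested. Thus 4 of the 7 tested genes were lower, where 24.4% of all 20339 tested genes were lower, and 1 was higher, where 20.7% of all tested genes were higher. A change in either direction was called for 45.1% of all tested genes, so a call by itself was common in these libraries. The median log2 fold change of the 7 genes was -0.54, against 0.00 over all tested genes. The genes were chosen with earlier results of these data known, so these contrasts describe the 7 genes and are no test of the pathway. Values are normalised read counts, given per library in the order of replicates 1, 2 and 3 or as mean ± SD with n = 3 libraries per group. Changes are on the log2(value + 1) scale, with ELF4 siRNA set against control, and carry limma's adjusted p, called at 0.05.

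The libraries held 23148635 to 38097986 recovered reads. ELF4 itself fell from 42.7 ± 3.96 to 4.74 ± 1.42, or 11.1% of control (log2 fold change -2.96, SE 0.25, limma adjusted p = 5.38e-07), and each ELF4 siRNA library held only 3 to 5 of its reads. All 12 sympathetic and neuroblastoma markers had a row, with single values from 376 to 108954, and 4 were higher, 4 lower and 4 not called (STMN2 0.57, CHGA 0.55 and CHGB 0.50 had the smallest adjusted p). Of 12 markers of blood, endothelial, epithelial, liver, fibroblast and glial cells, 9 had a row. Their summed level was 1361 to 1405 in control and 2157 to 2409 in ELF4 siRNA libraries, most of it from the matrix gene DCN (968 ± 33.7 and 1722 ± 58.7). Of the 6 such markers tested, 4 were higher and 1 lower. Beside both marker lists, 20.7% of all tested genes were higher and 24.4% lower. Among the 6 were DCN (0.83), the monocyte marker CD14 (-1.24) and the leukocyte marker PTPRC (1.06). CD14 and PTPRC were no higher than 41.8 in any library. The part of these markers in the results below was not tested, and in bulk RNA fewer cells of a type and less RNA per cell cannot be told apart.

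**Figure D1:**
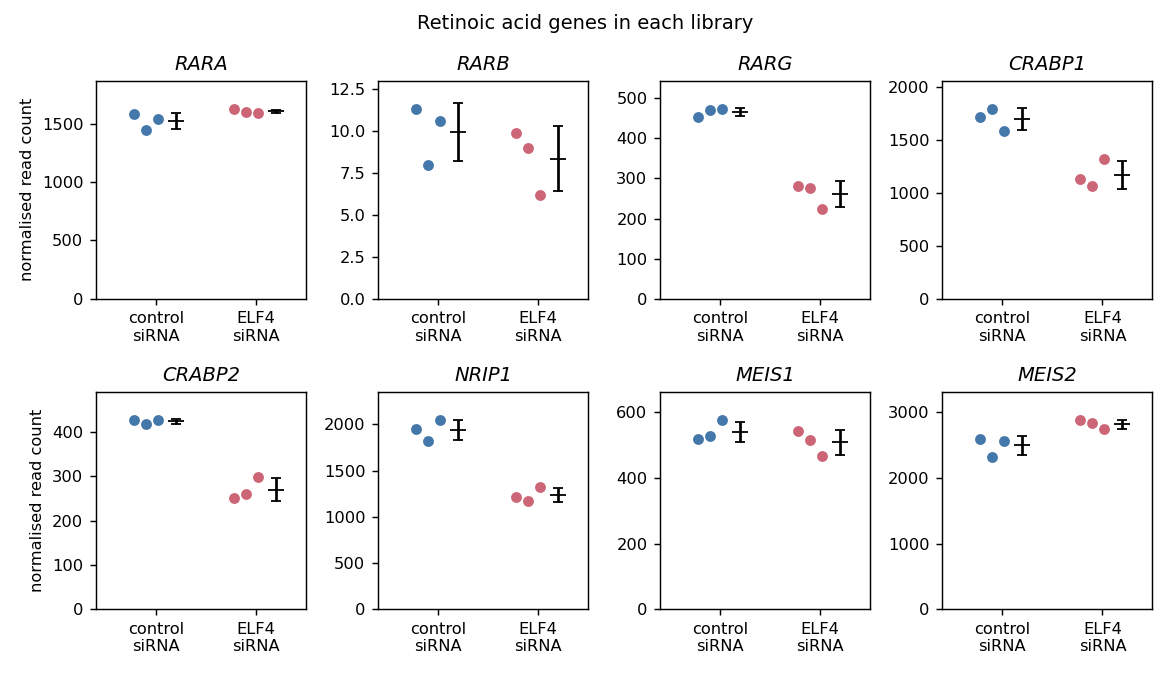
Normalised read count (vertical axes, from 0) of 8 genes in each control siRNA (blue) and ELF4 siRNA (red) library; the black bar beside each group is the mean ± SD of 3 libraries. RARG, CRABP1, CRABP2 and NRIP1 lie lower in every ELF4 siRNA library than in any control library, whereas the groups overlap for RARB and MEIS1.

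The receptors differed in level and in change. RARG, the receptor known from skin and embryonic tissue, had the largest fold change of the 7 tested RAR, CRABP, NRIP1 and MEIS genes. RARG read 454, 469.5 and 472 in the control libraries and 282, 276 and 223 in the ELF4 siRNA libraries. All 3 ELF4 siRNA values lay below the lowest control value, and ELF4 siRNA replicate 3 was the lowest. The mean went from 465 ± 9.85 to 260.2 ± 32.8, or 55.9% of control (log2 fold change -0.84, SE 0.09, 95% interval -1.03 to -0.66, limma adjusted p = 2.71e-06). A change of at least this size was seen in 4.77% of all tested genes. The same share was 9.73% for CRABP2, 9.93% for NRIP1, 14.6% for CRABP1 and 58.2% for MEIS2.

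RARA, the receptor present in most tissues, did not pass the test. It read 1586, 1448 and 1544 in control and 1625, 1602 and 1598 in ELF4 siRNA libraries. The groups did not overlap, but the step between them was small, from 1526 ± 70.3 to 1608 ± 14.5 (log2 fold change 0.08, 95% interval -0.03 to 0.18, limma adjusted p = 0.21). The interval leaves room for a rise of up to 0.18 and a fall of up to 0.03 on the log2 scale. With quantile normalization of the libraries RARA passed as higher (0.13, adjusted p = 0.031).

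RARB, the receptor gene that retinoic acid itself induces in many cells, was close to the limit of detection in both groups. RARB read 11.3, 8 and 10.6 in control and 9.91, 8.98 and 6.21 in ELF4 siRNA libraries, which rests on 12, 7 and 15 and on 9, 8 and 6 reads. The groups overlapped. To be tested, a gene had to reach 10 in 3 or more libraries, which RARB did not. Without the filter its log2 fold change was -0.24 (95% interval -0.86 to 0.39, limma adjusted p = 0.591), so a change of moderate size in either direction was not detectable at this depth.

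The RARB promoter is printed because it holds the classical retinoic acid response element, a direct repeat bound by RAR and RXR, at a gene that was barely read here. The 250 bases before the start site come from RefSeq on GRCh38.p14 at chr3:25428013-25428262, plus strand, with the matched part of the repeat in capitals.
RARB: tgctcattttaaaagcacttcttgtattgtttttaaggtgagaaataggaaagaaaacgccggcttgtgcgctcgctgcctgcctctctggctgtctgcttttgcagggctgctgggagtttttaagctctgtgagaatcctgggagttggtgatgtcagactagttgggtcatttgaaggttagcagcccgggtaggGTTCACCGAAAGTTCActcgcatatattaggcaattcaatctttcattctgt
The matched part lies 52 to 37 bases before the start site. The repeat was searched on both strands as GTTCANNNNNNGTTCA and the forms with GGTCA in either place. This pattern holds the last 5 bases of each repeated unit and leaves its first base open, so the full units are spaced by 5 bases. The capitals thus begin 1 base after the start of the first unit. Of 35116 promoter windows in the table, each with 250 bases before and 50 after a start, 0.174% hold such a repeat. RARB has 4 windows and the repeat is in 1 of them. None of the other windows of the 8 genes holds it, and repeats spaced by 2 or 1 bases (0.159% and 0.245% of all windows) were found in none of the 16.

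The makeup of the summed RAR reads differed between the groups. RARA made up 77.3%, 75.2% and 76.2% of the summed RAR normalised read count in the control libraries and 84.8%, 84.9% and 87.5% in the ELF4 siRNA libraries. RARG made up 22.1%, 24.4% and 23.3%, and then 14.7%, 14.6% and 12.2%. RARB stayed under 1% in all 6 libraries. The RARA share was higher by 9.49 percentage points (76.2 ± 1.05 to 85.7 ± 1.53, n = 3, two-sided exact permutation p = 0.1, the smallest that 3 libraries against 3 allow). The sum over the 3 receptors went from 2001 ± 66.3 to 1877 ± 45.9, or 93.8% of control (n = 3, two-sided exact permutation p = 0.1). Its groups did not overlap, but only narrowly, with a lowest control sum of 1926 and a highest ELF4 siRNA sum of 1917. These shares are not corrected for transcript length, so they compare libraries and not the amounts of the receptors. They are shares of RNA reads. With RARA not called and RARB under 1%, the shift restates the fall of RARG and is no separate result.

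**Figure D2:**
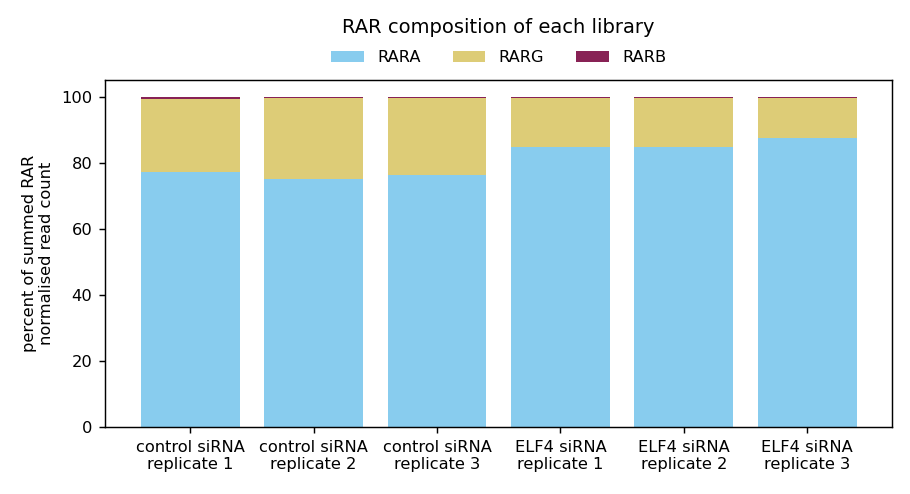
Share of RARA, RARG and RARB in the summed RAR normalised read count (vertical axis, percent) for each of the 6 libraries. RARA takes 75.2% to 77.3% in control and 84.8% to 87.5% in ELF4 siRNA libraries, and the RARB band is barely visible at 0.34% to 0.551%.

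Both binding proteins fell. CRABP2, which hands retinoic acid to the receptors in the nucleus, read 426, 417 and 426 in control and 250.1, 260.4 and 299 in ELF4 siRNA libraries. The control libraries lay close together and well above all ELF4 siRNA libraries. The mean went from 423 ± 5.32 to 269.9 ± 25.9, or 63.8% of control (log2 fold change -0.65, SE 0.08, limma adjusted p = 9.34e-06).

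CRABP1, which holds retinoic acid in the cytoplasm and is tied to its breakdown, read 1714, 1787 and 1587 in control and 1127, 1066 and 1319 in ELF4 siRNA libraries. The groups did not overlap, and ELF4 siRNA replicate 3 was the highest of its group for CRABP1 as for CRABP2. The mean went from 1696 ± 101 to 1171 ± 132, or 69% of control (log2 fold change -0.54, SE 0.07, limma adjusted p = 2.92e-05). The balance of the pair differed little between the groups. CRABP2 made up 20 ± 1.13% of the summed CRABP normalised read count in control and 18.8 ± 0.77% in ELF4 siRNA libraries, with overlapping values (difference -1.24 points, n = 3, two-sided exact permutation p = 0.2).

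NRIP1 had the smallest adjusted p of the 7 tested genes. It encodes RIP140, a corepressor that binds nuclear receptors when their ligand is present, and it is itself induced by retinoic acid in some cells. NRIP1 read 1944, 1821 and 2044 in control and 1219, 1168 and 1323 in ELF4 siRNA libraries. All ELF4 siRNA values lay below all control values. The mean went from 1936 ± 112 to 1237 ± 78.6, or 63.9% of control (log2 fold change -0.65, SE 0.06, 95% interval -0.77 to -0.52, limma adjusted p = 7.61e-07). The 3 genes with the profile most like it over the 6 libraries, among 11978 with a mean of at least 100, were ABHD5, RMI2 and OGFRL1. Their root mean square distances from NRIP1 were 0.025, 0.028 and 0.037 on the log2 scale, and their log2 fold changes were -0.64, -0.62 and -0.66. ABHD5 encodes a coactivator of fat droplet lipolysis and RMI2 a subunit of a complex that resolves recombining DNA.

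MEIS1 and MEIS2, which encode homeodomain partners of HOX and PBX proteins and respond to retinoic acid in embryonic cells, were not called lower. MEIS2 read 2595, 2326 and 2564 in control and 2879.5, 2831 and 2743 in ELF4 siRNA libraries. All ELF4 siRNA values were above all control values, but by little. The mean went from 2495 ± 147 to 2818 ± 69.4, or 113% of control (log2 fold change 0.18, SE 0.05, limma adjusted p = 0.0086). Without the trend in limma's moderation MEIS2 did not pass (adjusted p = 0.0644).

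MEIS1 read 517, 527 and 575 in control and 541, 516 and 466 in ELF4 siRNA libraries. The groups overlapped, and the means of 539.7 ± 31.1 and 508 ± 38.3 lay close to each other relative to their spread (log2 fold change -0.09, 95% interval -0.24 to 0.06, limma adjusted p = 0.324). Within each library MEIS2 made up 82.2 ± 1.02% of the summed MEIS1 and MEIS2 normalised read count in control and 84.7 ± 0.666% after ELF4 siRNA. The paralog MEIS3, given below, is not in that sum. The MEIS2 shares of the groups did not overlap (difference 2.55 points, n = 3, two-sided exact permutation p = 0.1, again the smallest possible). They are built from the same reads as the fold changes of MEIS1 and MEIS2 and are no separate result. Of the 7 tested genes, 6 had groups without overlap, MEIS1 being the exception, where 53.6% of all tested genes had none.

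ETS factors bind DNA around a GGAA core, and the promoters of MEIS1 and RARG are printed because, of the 16 windows, they alone hold the letters CGGAAG on either strand, although 1 of these genes fell and the other did not pass the test. MEIS1 also holds the longer CCGGAAGT, which contains the shorter motif, 16 to 9 bases before its start site on the strand opposite to the gene. In RARG the shorter motif lies 231 to 226 bases before the start. In all 35116 windows CGGAAG is in 19.5% and CCGGAAGT in 4.14%. The sequences are the 250 bases before each start in RefSeq on GRCh38.p14, from chr2:66434875-66435124 on the plus strand and chr12:53232210-53232459 on the minus strand, with the match in capitals.
MEIS1: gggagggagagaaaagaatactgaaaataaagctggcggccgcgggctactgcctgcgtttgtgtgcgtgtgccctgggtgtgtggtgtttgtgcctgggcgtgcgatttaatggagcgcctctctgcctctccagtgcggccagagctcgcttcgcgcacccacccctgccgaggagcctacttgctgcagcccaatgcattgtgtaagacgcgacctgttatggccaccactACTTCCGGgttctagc
RARG: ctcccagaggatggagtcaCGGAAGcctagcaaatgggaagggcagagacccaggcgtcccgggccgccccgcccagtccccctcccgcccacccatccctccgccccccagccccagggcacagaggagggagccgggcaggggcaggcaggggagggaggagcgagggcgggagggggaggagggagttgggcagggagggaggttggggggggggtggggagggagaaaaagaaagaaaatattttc
Such a match describes letters in a window and does not show binding. CRABP1, CRABP2 and NRIP1, which also fell, hold neither motif in their 5 windows.

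Ordered by level, CRABP1 was the most abundant of the 8 genes and RARB the least. These levels are normalised read counts per kb of merged exons, with exon lengths from GENCODE 29. In control libraries they were 1708 ± 101 for CRABP1, 385 ± 4.84 for CRABP2 and 323 ± 14.9 for RARA. They were 231 ± 13.6 for MEIS2, 228 ± 13.2 for NRIP1, 90.8 ± 1.92 for RARG, 49.4 ± 2.84 for MEIS1 and 2.7 ± 0.473 for RARB. MEIS2 and NRIP1 did not differ beyond their spread, and every other pair of neighbours was separate in all 3 libraries. That separation covers the spread between libraries and not any error in the lengths. Merged exons were 10934 bases for MEIS1 and 10798 for MEIS2, against 993 for CRABP1 and 1100 for CRABP2. They count every annotated exon, and the annotation used for counting was not given. The order of genes with near levels is therefore approximate. CRABP1 was above 95.9% of 14746 tested genes with a length, and RARB above 3.63%. After ELF4 siRNA the order changed in the middle. RARA (339.9 ± 3.07 per kb) then stood above CRABP2 (245 ± 23.5) and MEIS2 (261 ± 6.42), whose values overlapped, and NRIP1 (146 ± 9.25) stood below MEIS2. RARG (50.8 ± 6.39) and MEIS1 (46.4 ± 3.5) overlapped.

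**Figure D3:**
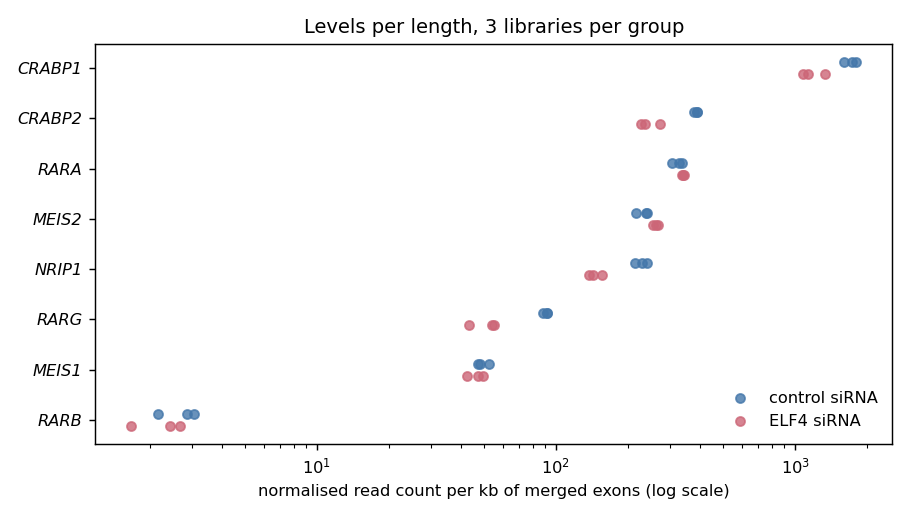
Normalised read count per kb of merged exons (horizontal axis, log scale) of 8 genes in 3 control siRNA (blue) and 3 ELF4 siRNA (red) libraries, ordered by the control mean. CRABP1 is at 1708 and RARB at 2.7 per kb in control, and RARG comes down from 90.8 to 50.8 per kb, next to MEIS1.

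The rest of the pathway was read from 6 lists of 62 other genes, of which 47 had a row and 40 were tested. Of these, 11 (27.5%) were higher, 11 (27.5%) were lower and 18 were not called. Their median was -0.06 on the log2 scale. Over all tested genes 20.7% were higher and 24.4% lower. Among the RXRs, RXRA fell from 1018 ± 14.8 to 873 ± 11.4 (-0.22, limma adjusted p = 0.0018). RXRB rose from 902 ± 48 to 997 ± 12.5 (0.15, adjusted p = 0.0381). Both changes were of common size, with 49.9% and 64.7% of all tested genes changing at least as much as RXRA and RXRB. The RXRB call was lost when any 1 of 5 libraries was left out (control replicate 1 or 3, or any ELF4 siRNA replicate; adjusted p of 0.0609 to 0.18), and RXRG was not analysed here.

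In retinoid supply and synthesis, 2 of 10 tested genes rose, 1 fell and 7 did not pass, beside 20.7% higher and 24.4% lower over all tested genes. STRA6, the cell surface receptor that takes up retinol, was high in all libraries and rose from 13464 ± 596 to 16466 ± 164 (0.29, limma adjusted p = 3.68e-05). As large a change as that of STRA6 was seen in 38% of all tested genes. RETSAT, a retinol saturase, rose by 0.24 (adjusted p = 0.00856). FABP5, a carrier that can bring retinoic acid to another nuclear receptor, was the only tested gene of 4 listed for clearance and other carriers. It fell from 2769 ± 22.5 to 2124 ± 43.4 (-0.38, adjusted p = 3.97e-06), although pseudogenes of nearly the same sequence make its own reads uncertain.

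Among 16 RAR coregulators, 6 rose (37.5%), 5 fell (31.2%) and 5 did not pass, where 20.7% of all tested genes were higher and 24.4% lower. NR2F1, which encodes the orphan receptor COUP-TF1, had the smallest adjusted p of the list. It read 517, 538 and 576 in control and 918, 871 and 854 in ELF4 siRNA libraries (0.70, limma adjusted p = 4.84e-07). PRAME, a tumour antigen known to repress RAR signalling, read 518, 545 and 531 and then 362, 339 and 313 (-0.65, adjusted p = 3.32e-06). For both genes the groups did not overlap. The antisense gene NR2F1-AS1 has its own row, and without a stated strand setting its reads and those of NR2F1 cannot be told apart.

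Of 5 tested partners and paralogs of MEIS, 2 fell and 3 did not pass, where 24.4% of all tested genes were lower. MEIS3, a paralog of MEIS1 and MEIS2, fell from 699 ± 11.1 to 569.9 ± 16.5 (-0.29, limma adjusted p = 5.15e-04), and PBX3 had 0.10 (adjusted p = 0.208). MEIS3 thus differed in call from MEIS1 and MEIS2, but the difference between these genes was not tested.

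Of 16 genes listed for their response to retinoic acid in some cell type, 6 were tested. Of these, 2 rose, 1 fell and 3 did not pass, beside 20.7% higher and 24.4% lower over all tested genes. BCL2, which protects from apoptosis, rose from 1668 ± 79.9 to 2369 ± 77.7 (0.51, limma adjusted p = 1.43e-06). TGM2, a transglutaminase induced by retinoic acid in many cells, rose from 206 ± 13 to 289 ± 18 (0.49, adjusted p = 2.06e-04). RET, a receptor tyrosine kinase that retinoic acid raises in neuroblastoma lines, fell from 20869 ± 107 to 18374 ± 268 (-0.18, adjusted p = 5.68e-04).

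**Figure D4:**
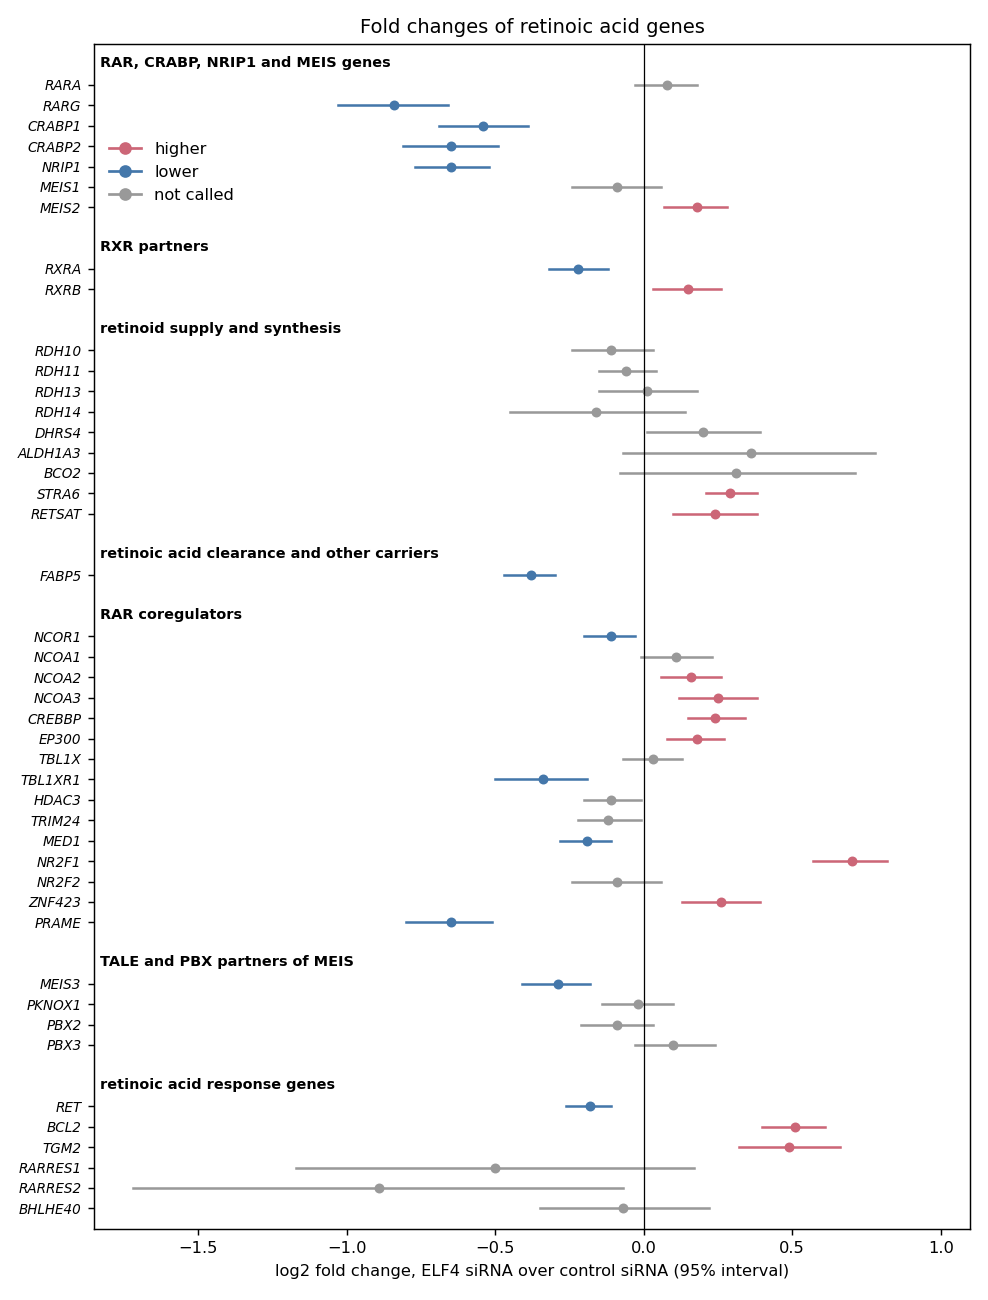
Log2 fold change after ELF4 siRNA relative to control (horizontal axis) with its 95% interval for tested genes of the retinoic acid and MEIS lists, without the marker lists; red is called higher, blue called lower and grey not called by limma at an adjusted p of 0.05. The 4 lowest called values of the first block are RARG, CRABP2, NRIP1 and CRABP1 (-0.84 to -0.54), and NR2F1 stands highest of the plotted genes at 0.70.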

How the data were processed

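Each deposited value is a signal, a read count per gene that the authors scaled by 1 size factor for each library. The tools named in the submitters' processing notes are DESeq2, featureCounts and TopHat, with build hg19; versions, roles, annotation and strand setting were not given in the sources used here. Dividing by what 1 read is worth gave whole numbers within 0.001 for 100% of values. Without a stated strand setting, reads of a gene and an antisense partner cannot be told apart. Names joined in 1 row (2148 rows) were not split.

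Libraries were grouped by title. The main test was limma with a trend on log2(value + 1), a scale that understates changes of low genes. It covered genes that reached 10 in 3 or more libraries, with Benjamini-Hochberg adjustment over 20339 genes. Shares within a library were tested by exact permutation. No label says whether the libraries are separate cultures, and p-values then measure only the spread between these samples, which may be technical. Reads of same-group libraries differed by more than sampling noise (chi-square of 2.05 to 5.78 per degree of freedom), and all 6 were kept.

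The genes and the 8 lists (6 of the pathway, 2 of markers) were chosen with earlier results of these data known. Named were the genes chosen, ELF4, up to 3 genes per list with the smallest adjusted p, and the 3 profiles nearest the gene with the smallest adjusted p. Some genes this names are left out of the text and the plot but stay in the counts of their lists. Alternatives were other pseudocounts, filters and scalings, no trend, edgeR and DESeq2 on recovered reads, a replicate block and leaving out each library. The test was run on data simulated for this comparison with 20377 genes. It found 60.6% of 99 genes changed by 0.5 and 85% of 100 changed by 1 (log2), and called 5 unchanged genes. Changed genes were thus few among the 20377, whereas 45.1% of all tested genes were called in the measured libraries. Whether these rates hold for the measured libraries was not tested. Promoters are from RefSeq (GRCh38.p14, all 8 genes matched) and exon lengths and 3′ UTRs from GENCODE 29. Software was Python 3.11.15 (matplotlib 3.10.9, pandas 2.3.3, scipy 1.17.1, numpy 2.4.6) and R 4.3.3 (DESeq2 1.42.0, edgeR 4.0.16, limma 3.58.1).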

Additional observations from a re-analysis of the deposited data

How the results depend on the processing

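The alternatives gave 112 fold changes for the 7 tested genes, and 110 of them had the direction and call of the main value. The falls of RARG, CRABP1, CRABP2 and NRIP1 passed under every alternative run, with log2 fold changes of -0.91 to -0.74, -0.63 to -0.47, -0.73 to -0.60 and -0.70 to -0.58 and a highest adjusted p of 0.00228, 0.00815, 0.00225 and 0.00188. The number of the 7 genes called higher was 2 with quantile normalization, where RARA joined MEIS2, and 0 without the trend, where MEIS2 was lost; the cause was not tested. The adjusted p of MEIS2 ranged from 4.29e-04 to 0.0644 and that of RARA from 0.031 to 0.516. Of 334 values for the other named genes, 325 kept their side, 7 no longer passed (all RXRB) and 2 passed newly (both PBX3). Deviations of same-numbered libraries of the 2 groups had correlations of 0.029, 0.075 and 0.041. These were small, but each lay above those of all differently numbered pairs (-0.057 to 0.015). The main test did not pair libraries by number, and whether the numbers mark shared batches was not tested. With a replicate block 4564 genes were called higher and 5346 lower, against 4217 and 4956 in the main test. No call of the 7 genes changed with the block. The RARA share of the RARs and the MEIS2 share of MEIS1 and MEIS2 then each gave an exact permutation p of 0.25. That is the smallest possible for 3 pairs. For the CRABP2 share the exact permutation p was 0.5. Depth limits RARB, with 6 to 15 reads per library.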

Other observations

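Earlier work on these data had picked the 7-mers ACCTGTC and CCTGTCA in 3′ UTRs by their association with lower fold changes, so the following is a description and no test of them. In 1 GENCODE 29 transcript per gene, only RARG of the 8 genes carried a match, 1 copy of CCTGTCA that begins at base 649 of a 3′ UTR of 1106 bases. It is printed with its flanks, the match in capitals.
RARG: ctcccccagcCCTGTCAtgtgccttgg
CRABP1, CRABP2 and NRIP1, which also fell, carried none in 3′ UTRs of 253, 408 and 3481 bases, and neither did RARA, RARB, MEIS1 or MEIS2. Of 12583 tested genes with a 3′ UTR, 17.1% carried a match. The share was 23.7% of the 3933 genes called lower, 13.3% of the 2749 called higher and 14.5% of the 5901 not called, and the median 3′ UTR lengths of these sets were 1207, 852 and 973 bases. The part of such matches in the fall of RARG was not tested.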
